A study of Mus musculus with 6 samples.

Results

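NKp46 and CD16, signalling adaptors of activating receptors, and the kinases, scaffold and phospholipase below them were followed in mRNA-seq of splenic NK cells. NK cells with and without METTL3, an enzyme that places N6-methyladenosine on mRNA, were compared. The 10 genes were chosen by name (Ncr1, Fcgr3, Tyrobp, Hcst, Fcer1g, Cd247, Syk, Zap70, Lcp2 and Plcg2), and all 10 were found among the 14490 genes listed. WT samples came from Mettl3fl/fl mice, which carry the floxed gene and no Cre, and cKO samples from Ncr1Cre-Mettl3fl/fl mice, with 3 samples per genotype on the C57BL/6 background, from young adult mice without further treatment. Cre is expressed from the Ncr1 locus itself, on 1 allele according to the methods. An effect of the modified Ncr1 allele and an effect of Mettl3 loss on Ncr1 therefore cannot be told apart, since no Cre-positive sample with intact Mettl3 was analysed here. The general purification protocol of the study enriched cells with an antibody to NKp46, the product of Ncr1. The samples for mRNA-seq were sorted by flow cytometry with a gate that is not given in the sources used here, and the number of mice per sample is not given either.

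NKp46 is an activating receptor by which mouse NK cells are commonly identified, and CD16 binds the constant part of IgG and triggers antibody-dependent killing. Neither signals alone. They pair in the membrane with small adaptors whose tails carry the immunoreceptor tyrosine-based activation motif (ITAM), a pair of spaced tyrosines. Src family kinases phosphorylate these tyrosines, SYK and ZAP70 dock on them, and the signal passes through the scaffold encoded by Lcp2 to phospholipase C gamma, calcium and granule release. DAP10, the product of Hcst, has a different tyrosine motif that recruits phosphoinositide 3-kinase and signals for NKG2D.

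The motif-coding stretches are shown because they are what sets the adaptors apart. They were read from GENCODE M21 transcripts on GRCm38, 5′ to 3′ on the coding strand, with tyrosine codons in capitals. Tyrobp has 1 ITAM (chr7:30415670-30417382, plus strand, exons 4 and 5 of 5) and so has Fcer1g (chr1:171229889-171230072, minus strand, exons 4 and 5 of 5). Cd247 has 3, on the plus strand (chr1:165856451-165857454 in exons 3 and 4, chr1:165858473-165859260 in exons 5 and 6 and chr1:165859819-165861042 in exons 7 and 8 of 8). Each of these 5 coding stretches is split by an intron, which is left out of the letters shown. The motif of Hcst lies within exon 4 of 4 (chr7:30417821-30417832, minus strand).
Tyrobp: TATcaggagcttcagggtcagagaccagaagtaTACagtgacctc
Fcer1g: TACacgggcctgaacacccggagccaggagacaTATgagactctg
Cd247, ITAM 1: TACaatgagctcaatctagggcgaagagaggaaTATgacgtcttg
Cd247, ITAM 2: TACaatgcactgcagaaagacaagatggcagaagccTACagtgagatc
Cd247, ITAM 3: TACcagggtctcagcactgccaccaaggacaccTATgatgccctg
Hcst: TACatcaacatg

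Values are normalized counts, that is, the counts of each gene divided by a size factor of the sample. The listed genes held 55965515 to 71464042 reads per sample, and Mettl3 averaged 1251 ± 56.0 in WT and 334 ± 61.9 in cKO (mean normalized counts with SD, n = 3 each), lower in each cKO sample. All 10 genes were well covered, with means of 70.3 to 770 CPM (reads scaled to an equal library total) against a median of 13.5 over all genes. Their coefficients of variation between samples of 1 genotype ran from 1.11% to 5.89%. The markers of NK cells were abundant in both genotypes, and their summed normalized counts ran from 1042106 to 1076264 in WT and from 977435 to 1025460 in cKO, with 7 of 12 markers lower and 2 higher. In sorted bulk samples, fewer cells of a type and less RNA per cell cannot be told apart.

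Of the 10 genes, 7 were lower and 1 was higher in cKO NK cells (limma, adjusted p under 0.05 over all genes), and Fcgr3 and Syk did not pass the test. Over all genes 18.8% were called lower, 17.8% higher and 36.6% in either direction, a background taken over genes of all levels. The changes were small. The median log2 fold change of the 10 genes was −0.17, against 0.0014 over all genes, and the whole 95% interval lay between −0.5 and 0.5 for all 10. None of the 10 (0 genes) met the limits of the study, a p under 0.05 and a change beyond 1 in either direction on the log2 scale, which 1.75% of all genes met in the limma fit. In 7 of the 10 genes the cKO samples did not overlap the WT samples, where 45.7% of all genes did not. The exact permutation test gave a two-sided p of 0.1 for these 7, 0.2 for Hcst, 0.5 for Fcgr3 and 0.6 for Syk. With 3 samples against 3 it cannot go below 0.1, so the calls rest on the limma fit.

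**Figure D1:**
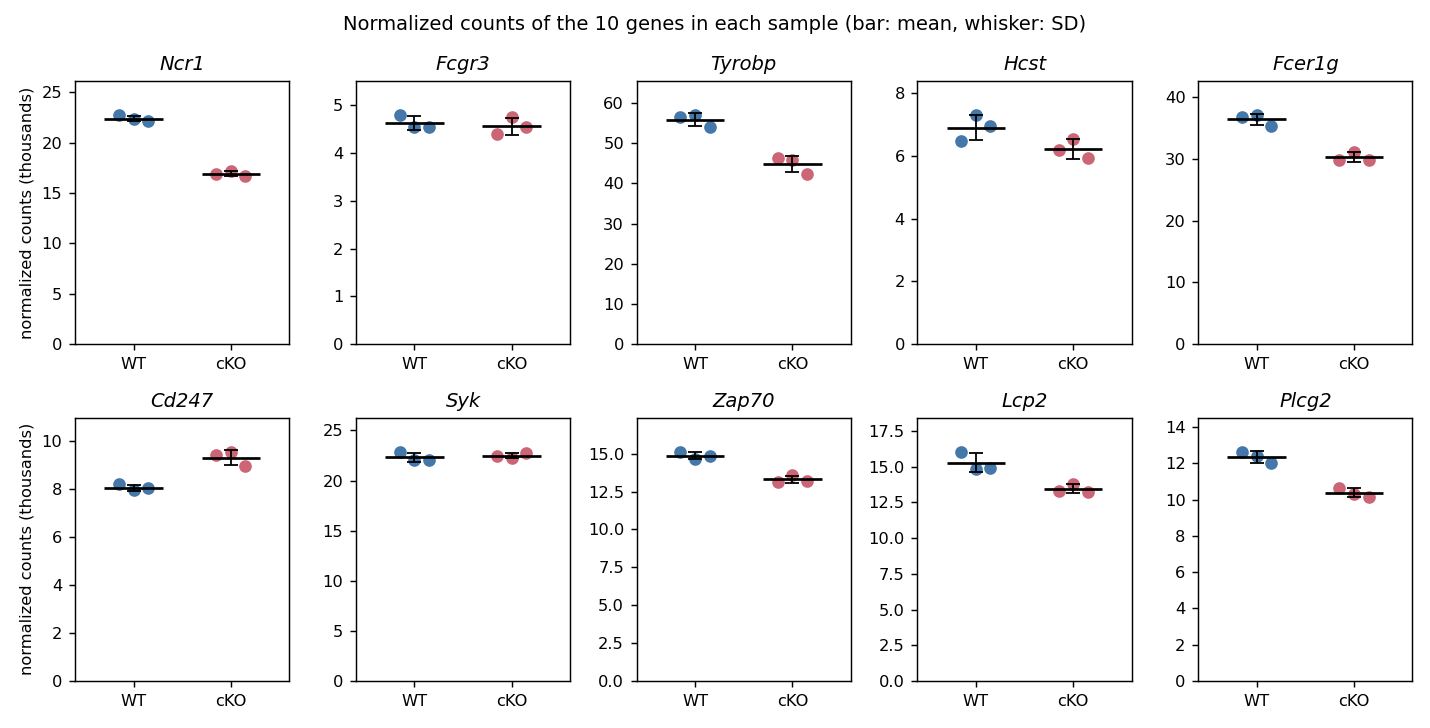
Normalized counts (in units of 1000, vertical axis from 0) of the 10 genes in the 3 WT and 3 cKO samples, with each point a sample, the bar the mean and the whisker the SD. Ncr1, Tyrobp, Fcer1g, Zap70, Lcp2 and Plcg2 lay lower in every cKO sample than in any WT sample, Cd247 lay higher, and Fcgr3, Hcst and Syk overlapped.

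Among the receptors, Ncr1, the gene of NKp46, was lower in cKO while Fcgr3, the gene of CD16, showed no detected difference. Ncr1 (ENSMUSG00000062524.4, GRCm38 chromosome 7, 4337724 to 4345164, plus strand) stood at 22707, 22328 and 22147 normalized counts in samples WT-1, WT-2 and WT-3. In cKO-1, cKO-2 and cKO-3 it stood at 16938, 17138 and 16678. All cKO values lay below all WT values, and within each genotype the samples differed little. On the log2 scale limma gave −0.40 (SE 0.0300, adjusted p = 3.56e-11), a change of −24.5% with a 95% interval of −27.6% to −21.2%. It was the lowest log2 fold change of the 10 genes, though 1095 of the 14490 genes had a lower one.

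Fcgr3 (ENSMUSG00000059498.13, chromosome 1, 171051174 to 171064935, minus strand) stood at 4789, 4545 and 4549 normalized counts in WT-1 to WT-3 and at 4389, 4753 and 4537 in cKO-1 to cKO-3. The genotypes overlapped, with WT-1 the highest of the 6 and cKO-1 the lowest. The limma estimate on the log2 scale was −0.022 (SE 0.0408, adjusted p = 0.723), with a 95% interval for the change of −7.06% to 4.41%. Its sign depended on the scaling, and a log2 fold change of 0.028 was obtained with the samples scaled to equal totals.

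Fcgr3 has close relatives on the same stretch of chromosome 1, and of these Fcgr2b was higher in cKO. Fcgr2b, which encodes the inhibitory receptor for IgG, rose from a mean of 4941 ± 154 (SD, n = 3) normalized counts to one of 6470 ± 222 (SD, n = 3), a change that limma put at 0.39 on the log2 scale (adjusted p = 9.28e-09). Fcgr4, an activating receptor for IgG of myeloid cells, had 141 ± 23.4 in WT and 166 ± 15.7 in cKO (mean normalized counts with SD, n = 3 each) and did not pass the test (limma adjusted p = 0.295). Fcgr2b and Fcgr3 share near-identical exons, and how reads from these were assigned is not given in the sources used here, so their separate values are uncertain. Fcgr2b is also a gene of B cells, and most B-cell markers moved with it. Of 11 B-cell markers 7 were higher and 0 were lower, with summed normalized counts of 1118 to 1142 in WT and 1502 to 1585 in cKO. Not called were Cd79b, with means of 135 in WT and 137 in cKO, Ebf1 (52.0 and 63.7), Bank1 (260 and 226) and Fcrla (32.8 and 26.4). The marker Cd79a averaged 201 normalized counts in WT and 334 in cKO. The part of B cells in the rise of Fcgr2b was not tested.

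The neighbours of Ncr1 were examined because the locus carries Cre. The nearest listed genes below it, Leng9 and Lilra5, did not pass the test (limma adjusted p = 0.538 and 0.824). Above it, Gp6, a collagen receptor of platelets that pairs with the Fc receptor gamma chain, lies 18800 bases from the end of Ncr1 on the other strand. Gp6 had 7.94, 4.76 and 17.6 normalized counts in WT-1 to WT-3 and 44.7, 22.7 and 44.8 in cKO-1 to cKO-3. Every cKO sample was above every WT sample, at a level where counting error is large. With a limma estimate of 1.90 on the log2 scale (SE 0.493, adjusted p = 0.00322), it was the only receptor examined that passed the fold limit of the study. The next gene, Rdh13, had 322 ± 49.7 in WT and 385 ± 13.3 in cKO (mean normalized counts with SD, n = 3 each) and did not pass the test (limma adjusted p = 0.0816), though it did in some alternatives (range of adjusted p 0.0316 to 0.418). Whether the modified locus contributed to these values was not tested.

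The start of Ncr1 is shown because in cKO mice this locus drives both NKp46 and Cre. The stretch runs from 250 bases before the start to 50 bases into the gene (RefSeq, GRCm38.p6, chr7:4337474-4337773, plus strand), with matches to the RUNX motif TGTGGT or its reverse complement ACCACA in capitals.
Ncr1: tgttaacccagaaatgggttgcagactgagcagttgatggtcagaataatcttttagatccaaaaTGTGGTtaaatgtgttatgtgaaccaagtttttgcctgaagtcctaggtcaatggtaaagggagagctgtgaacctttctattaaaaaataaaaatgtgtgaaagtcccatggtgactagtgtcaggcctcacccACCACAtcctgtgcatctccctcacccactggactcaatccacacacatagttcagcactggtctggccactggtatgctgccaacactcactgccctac
It held 2 such matches, at bases 66 and 201, and the motif is present on either strand in 13.4% of 9905 promoters of listed genes. The ETS motif GGAAGT (29.7% of promoters) and the T-box motif GGTGTGA (3.54%) had 0 matches in this window, each searched on both strands. Among the other members in the promoter table, which holds 9 of the 10, Fcer1g had 1 match to the RUNX motif, and Hcst and Cd247 had 2 each to the ETS motif, and the rest had none. These are matches of letters only.

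By pattern over the 6 samples, the genes most like Ncr1 were Rabac1, Sar1a and Tcp11l2, whose log2 values after subtraction of the WT mean differed from those of Ncr1 by a root mean square of 0.0158, 0.0173 and 0.0187, the smallest among 11752 genes. Their log2 fold changes were −0.40, −0.42 and −0.41. The measure includes the shift between genotypes, so fold changes near that of Ncr1 follow from how these genes were picked.

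The adaptors moved in different directions. Tyrobp and Fcer1g, the 2 most abundant of the group, were lower in cKO, Hcst was lower by less, and Cd247 was higher. Tyrobp encodes DAP12, which serves the activating Ly49 receptors and NKG2D in mice. Tyrobp (ENSMUSG00000030579.10, chromosome 7, 30413760 to 30417585, plus strand) stood at 56615, 56953 and 54155 normalized counts in WT-1 to WT-3 and at 46364, 45747 and 42443 in cKO-1 to cKO-3. Its genotypes did not overlap, and WT-3 and cKO-3 were the lowest of their groups. In the limma fit the log2 fold change was −0.32 (SE 0.0333, adjusted p = 2.08e-08), a change of −19.8% (95% interval −23.5% to −15.9%).

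Fcer1g, the gene of the Fc receptor gamma chain used by NKp46, CD16 and NK1.1, lies on chromosome 1 at 171229572 to 171234365 (ENSMUSG00000058715.11, minus strand). It stood at 36862, 37062 and 35408 normalized counts in WT-1 to WT-3 and at 29781, 31178 and 29871 in cKO-1 to cKO-3, again without overlap. On the log2 scale limma gave −0.27 (SE 0.0307, adjusted p = 1.03e-07), a change of −16.9% (95% interval −20.5% to −13.2%).

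Cd247 encodes CD3 zeta, the adaptor with 3 ITAMs that NKp46 can also use. Cd247 (ENSMUSG00000005763.15, chromosome 1, 165788681 to 165877277, plus strand) stood at 8179, 7930 and 8009 normalized counts in WT-1 to WT-3 and at 9396, 9525 and 8951 in cKO-1 to cKO-3. It was the only gene of the 10 that was higher in every cKO sample, with a limma estimate of 0.21 on the log2 scale (SE 0.0348, adjusted p = 2.83e-05) and a change of 15.5% (95% interval 9.94% to 21.4%). Its exons overlap those of Pou2f1 on the other strand and of Gm16565 on its own strand, and the use of strand in counting is not given in the sources used here. Pou2f1 rose too, from a mean of 2244 ± 174 (SD, n = 3) normalized counts to one of 2606 ± 121 (SD, n = 3, limma adjusted p = 0.00229). Gm16565 was lower in cKO, with 329 ± 28.0 (SD, n = 3) against 451 ± 30.7 (SD, n = 3) in WT (limma adjusted p = 0.00141). Cd247 is also a gene of T cells, and of 10 measured T-cell markers 0 were called higher and 3 lower in cKO. Of the rest, Cd8a and Trac lay higher in every cKO sample than in any WT sample.

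Hcst encodes DAP10 (ENSMUSG00000064109.8, chromosome 7, 30417712 to 30419854, minus strand). It lies tail to tail with Tyrobp, with 126 bases between their annotated ends. Hcst stood at 6483, 7294 and 6943 normalized counts in WT-1 to WT-3 and at 6187, 6551 and 5929 in cKO-1 to cKO-3, and cKO-2 lay above WT-1. The limma estimate on the log2 scale was −0.15 (SE 0.0428, adjusted p = 0.00683), a change of −9.88% (95% interval −15.2% to −4.21%). This call was lost with the samples scaled to equal totals (adjusted p = 0.0622), without WT-2 (0.0583) and without cKO-3 (0.0527), within a range of 0.00133 to 0.0622 over all alternatives.

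**Figure D2:**
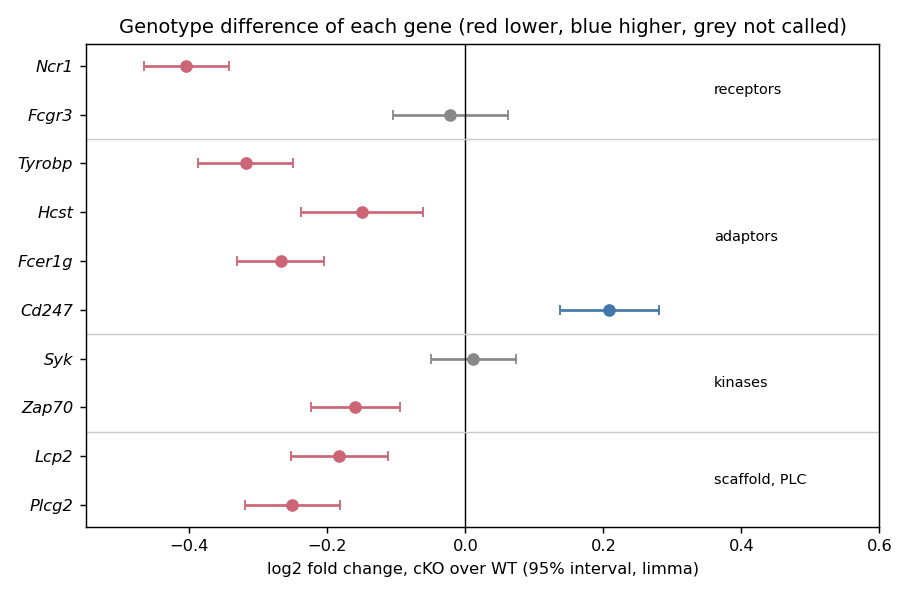
Log2 fold change of cKO over WT (horizontal axis) with its 95% interval from limma for each of the 10 genes, ordered by role. The 7 genes called lower run from −0.40 for Ncr1 to −0.15 for Hcst, Cd247 stands at 0.21, and the intervals of Fcgr3 and Syk cross 0.

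The balance between adaptors was compared within each sample, as was that between the kinases. Per kilobase of exon, Fcer1g mRNA was 27.5, 28.5 and 27.0 times as abundant as Cd247 mRNA in WT samples, and 19.3, 20 and 20.3 times in cKO samples. The cKO ratios all lay below the WT ratios, and the log2 difference of Fcer1g and Cd247 was lower by 0.48 in cKO. The ratio of Tyrobp to Hcst was 9.45, 8.45 and 8.44 in WT samples and 8.11, 7.56 and 7.75 in cKO samples, a log2 difference that was lower by 0.17. The ratio of Syk to Zap70 was 0.483, 0.482 and 0.474 in WT samples and 0.545, 0.525 and 0.550 in cKO samples, a log2 difference that was higher by 0.17. In all 3 pairs the genotypes did not overlap, where 45.7% of all single genes did not, and the share among other pairs of genes was not counted. The ratios are made from the same values as the single-gene calls and are no separate evidence. Each exact permutation test gave a two-sided p of 0.1 (adjusted over the 3 pairs, 0.1). This is the smallest that 3 samples against 3 allow, so none could pass 0.05.

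Of the tyrosine kinases, Zap70 was lower in cKO and Syk showed no detected difference. Syk (ENSMUSG00000021457.14, chromosome 13, 52583173 to 52648792, plus strand) stood at 22840, 22072 and 22004 normalized counts in WT-1 to WT-3 and at 22432, 22259 and 22749 in cKO-1 to cKO-3. The cKO range lay within the WT range. In the limma fit the log2 fold change was 0.011 (SE 0.0300, adjusted p = 0.808), with a 95% interval for the change of −3.43% to 5.20%, and it turned to −0.012 once GC content and gene length were corrected for. Zap70, the related kinase best known from T cells (ENSMUSG00000026117.10, chromosome 1, 36761798 to 36782818, plus strand), stood at 15105, 14649 and 14835 in WT-1 to WT-3 and at 13151, 13562 and 13210 in cKO-1 to cKO-3. No cKO sample reached the WT range, with a limma estimate of −0.16 on the log2 scale (SE 0.0313, adjusted p = 0.000204) and a change of −10.5% (95% interval −14.4% to −6.38%).

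Below the kinases, both the scaffold and the phospholipase were lower. Lcp2 (ENSMUSG00000002699.13, chromosome 11, 34046920 to 34092295, plus strand) stood at 16032, 14874 and 14936 normalized counts in WT-1 to WT-3 and at 13286, 13815 and 13265 in cKO-1 to cKO-3. WT-1 stood above the other WT samples, and all cKO samples lay below all WT samples. On the log2 scale limma gave −0.18 (SE 0.0342, adjusted p = 0.000115). An exon of 4930469K13Rik on the other strand overlaps Lcp2, and that gene averaged 32.0 normalized counts in WT and 32.8 in cKO. Its part in the Lcp2 value was not tested. Plcg2, the phospholipase C gamma of NK cells and B cells (ENSMUSG00000034330.10, chromosome 8, 117498291 to 117635142, plus strand), stood at 12625, 12404 and 12011 in WT-1 to WT-3 and at 10648, 10310 and 10166 in cKO-1 to cKO-3, without overlap. The limma estimate on the log2 scale was −0.25 (SE 0.0333, adjusted p = 1.07e-06), a change of −16.0% (95% interval −19.9% to −11.9%). Its paralog Plcg1, the form that prevails in T cells, had 324 ± 44.5 in WT and 260 ± 17.3 in cKO (mean ± SD, n = 3 each), with a limma adjusted p of 0.0565 that passed the threshold in 3 of 13 alternatives (range 0.0158 to 0.226).

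Levels were compared between genes as RPKM, the reads per kilobase of merged exons scaled to an equal total of reads on listed genes. Tyrobp was the most abundant of the 10 with 1261 ± 29.0 in WT and 1047 ± 43.2 in cKO (mean ± SD, n = 3 each), and only 32 of 14105 genes with a known length had a higher mean. Fcer1g followed with 628 ± 12.8 (SD, n = 3) and 540 ± 8.86 (SD, n = 3), then Ncr1 with 219 ± 2.05 (SD, n = 3) and 171 ± 0.763 (SD, n = 3). Hcst had 144 in WT and 134 in cKO, Zap70 74.8 and 69.3, and Lcp2 51.6 and 47.0. Down to Lcp2 the range of each gene over the 6 samples lay apart from that of the next. Fcgr3, Plcg2 and Syk overlapped their neighbours in that order, and their place changed with the genotype. In WT Plcg2 had 43.2, Fcgr3 40.1 and Syk 35.9, while in cKO Fcgr3 had 40.9, Plcg2 37.6 and Syk 37.4. Cd247 was the lowest with 22.7 ± 0.338 in WT and 27.2 ± 0.647 in cKO (mean ± SD, n = 3 each). Merged exons include rarely used ends, 9362 bases in all for Syk, and understate the level of a gene that uses a shorter form.

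**Figure D3:**
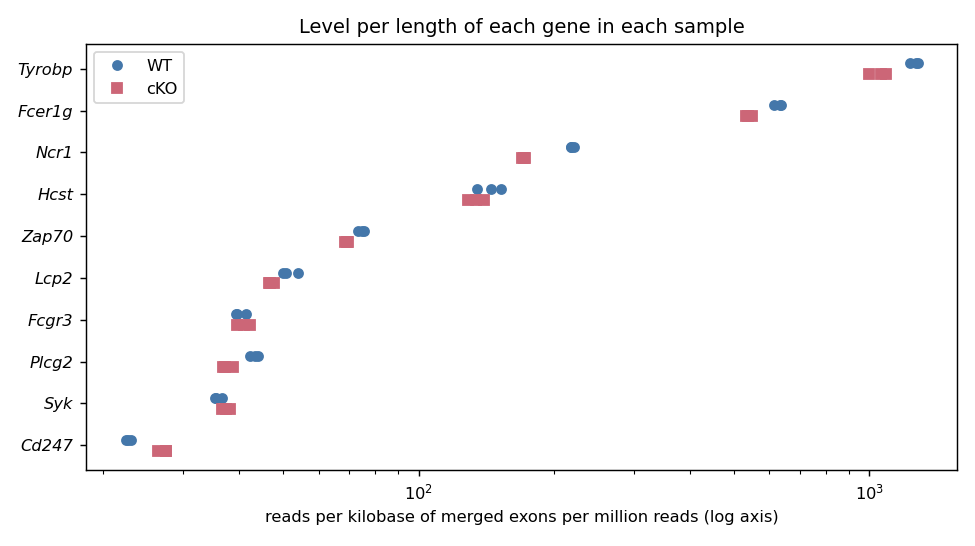
RPKM (log axis) of each of the 10 genes in each WT and cKO sample, ordered by mean. Tyrobp mRNA stands at 1000 to 1280 and Cd247 mRNA at 22.4 to 27.5, with Fcgr3, Plcg2 and Syk overlapping between 35.4 and 44.1.

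As a sequence feature that bears on the enzyme deleted, the letters GGACT, a common form of the methylation motif, were counted in the longest coding transcript of each gene. Hcst had 2 in 442 bases and Tyrobp 2 in 597, or 4.52 and 3.35 per kilobase, above the 90th percentile of all genes at 2.11. Fcer1g and Cd247 had 0, Plcg2 had 8 in 4298 bases and Syk 7 in 5363. The median of the 10 genes was 1.06 per kilobase and that of all genes 1.02. Of the adaptors, Tyrobp and Hcst, which hold these letters, were both called lower, while of those that lack them Fcer1g was called lower and Cd247 higher. Other forms of the motif were not counted, and the part of methylation in these changes was not tested.

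Activating and Fc receptors of NK cells and related cells were examined next, several of which pair with DAP12, DAP10 or the Fc receptor gamma chain. Of 29 receptors listed, 20 were measured, of which 9 were lower, 3 higher and 8 not called. So 12 of the 20 were called beside 36.6% of all genes (18.8% lower and 17.8% higher), a background taken over genes of all levels. The median log2 fold change of the list was −0.086. Klra8, which encodes the activating receptor Ly49H, went from a mean of 37349 ± 536 (SD, n = 3) normalized counts to one of 26595 ± 1059 (SD, n = 3), a change that limma put at −0.49 on the log2 scale (adjusted p = 2.24e-12). Klra4, which encodes the activating receptor Ly49D, had −0.42 (limma adjusted p = 6.46e-11). Ly49 genes are close paralogs, so counts of single members are uncertain.

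Klrb1c, the gene of the NK1.1 receptor that pairs with the Fc receptor gamma chain, had 37458 ± 771 in WT and 31025 ± 947 in cKO (mean ± SD, n = 3 each), a change that limma put at −0.27 on the log2 scale (adjusted p = 8.07e-08). Klrk1, the gene of NKG2D, which signals through DAP10 and DAP12, had −0.19 (limma adjusted p = 1.25e-05). The largest fall in the list was that of Crtam, an adhesion receptor of activated lymphocytes that is no known partner of these adaptors, with −0.66 (limma adjusted p = 2.74e-10). Besides Fcgr2b and Gp6, Itgb2, the integrin chain CD18, was higher, with 0.17 (limma adjusted p = 7.42e-05).

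Among kinases, adaptors and second messenger enzymes around the 10 genes, more were called lower than higher. Of 68 listed, 67 were measured, with 28 lower, 13 higher and 26 not called. So 61.2% were called beside 36.6% of all genes, a background taken over genes of all levels. The median log2 fold change was −0.075. At equal totals per sample, 22 were lower and 20 higher, where 2016 of the 14490 genes were lower and 3487 higher. Lat, the membrane scaffold that works with the product of Lcp2, fell from a mean of 5477 ± 241 (SD, n = 3) normalized counts to one of 4549 ± 137 (SD, n = 3), a change that limma put at −0.27 on the log2 scale (adjusted p = 7.67e-06). The largest falls were those of the kinase Src with −0.93, of the docking protein gene Gab2 with −0.57 and of the exchange factor gene Vav3 with −0.42 (limma adjusted p = 4.68e-06, 1.00e-09 and 5.27e-06). Src is a gene of low level here, with 318 ± 22.1 (SD, n = 3) normalized counts in WT.

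Among called genes of at least 1 CPM in this list, the largest rises were those of Yes1, Blnk and Nck1. Yes1, a Src family kinase, had 0.79, Blnk 0.59 and Nck1, an adaptor to the actin cytoskeleton, 0.40 (limma adjusted p = 0.000383, 0.0481 and 1.14e-07). Yes1 too is a gene of low level here, with 119 ± 4.08 normalized counts in WT and 207 ± 27.3 in cKO (mean ± SD, n = 3 each). Blnk, the B-cell relative of Lcp2, had 67.6 ± 14.2 in WT and 102 ± 15.5 in cKO (mean ± SD, n = 3 each). It lost its call in 5 of 13 alternatives, and it rose alongside most of the B-cell markers given above.

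Of the negative regulators of this signalling, as many were called lower as higher. Of 30 measured, 8 were lower, 8 higher and 14 not called. So 53.3% were called beside 36.6% of all genes, a background taken over genes of all levels. The median log2 fold change of the list was 0.0014. With equal totals 6 were lower and 10 higher, and of all calls at that scaling 63.4% were higher. Ptpn2, a tyrosine phosphatase gene, had a log2 fold change of −0.31, Sh2b3 of −0.26 and Dok2 of −0.22 (limma adjusted p = 1.78e-07, 2.32e-07 and 3.99e-06). Lax1, a membrane adaptor gene, rose from a mean of 13557 ± 106 (SD, n = 3) normalized counts to one of 16125 ± 458 (SD, n = 3), a change that limma put at 0.25 on the log2 scale (adjusted p = 5.48e-07), and Dok1 rose by 0.18 (limma adjusted p = 0.00322). Dok3, at 105 ± 9.0 (SD, n = 3) and 145 ± 1.49 (SD, n = 3), was called at a limma adjusted p of 0.0421 and lost the call in 6 of 13 alternatives.

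**Figure D4:**
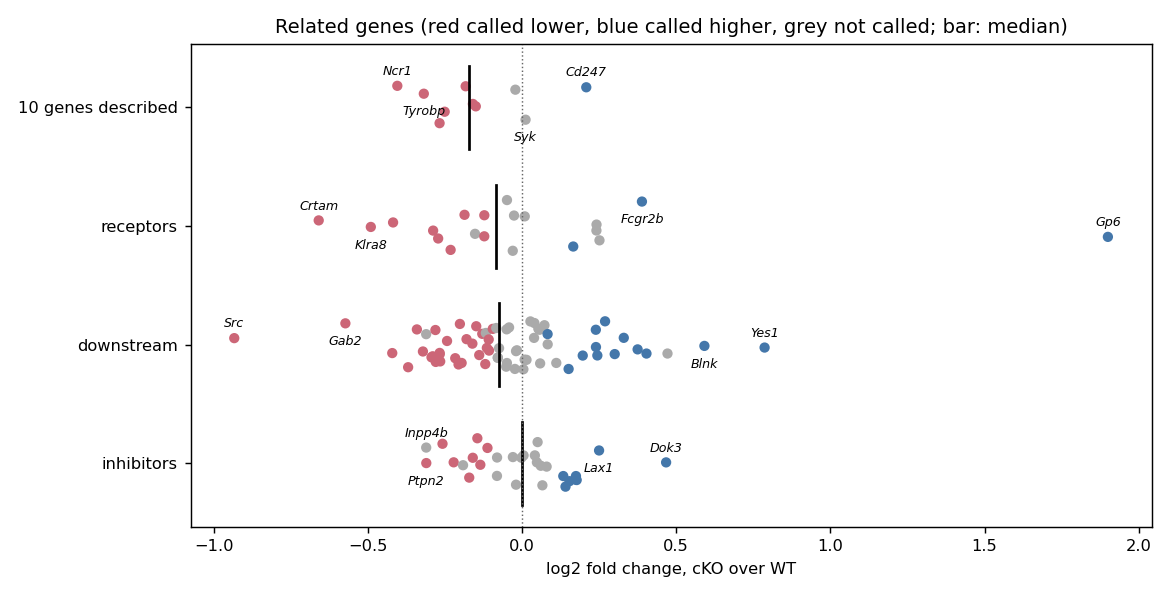
Log2 fold change of cKO over WT (horizontal axis) of the 10 genes, 20 receptors, 67 downstream genes and 30 inhibitors, with each point a gene, coloured by its limma call, and the bar the median. The medians are −0.17, −0.086, −0.075 and 0.0014, and Gp6 at 1.90 lies apart from the other receptors.

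Markers of other cells that also express members of the group were read beside them. Tyrobp, Fcer1g, Fcgr3 and Syk are shared with myeloid cells, whose markers had overlapping sums of 16774 to 17478 normalized counts in WT and 16729 to 17772 in cKO, with 4 of 13 higher and 2 lower. Zap70, Cd247 and Lcp2 are shared with T cells, whose marker sums were 14463 to 15688 in WT and 10209 to 10802 in cKO. Most of that sum was Cd28, which fell from a mean of 11867 to one of 7910 normalized counts. Cd3g and Cd6 also fell, from 802 to 478 and from 57.5 to 32.3, and the other 7 measured T-cell markers were not called. Of those 7, Cd8a (45.2 in WT, 71.3 in cKO) and Trac (767 and 863) lay higher in every cKO sample than in any WT sample. Their limma adjusted p was 0.0514 and 0.075. The estimate of Cd3e was also positive, and those of Cd3d, Cd4, Cd5 and Bcl11b were negative. Of the markers of immature NK cells 3 of 9 were higher and 2 lower, and of those of mature NK cells 3 of 9 higher and 2 lower. Syk and Plcg2 are also expressed by B cells, most of whose markers were higher in cKO as given above. The part of other cells or of a shift in maturation in the values of the 10 genes was not tested.

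**Figure D5:**
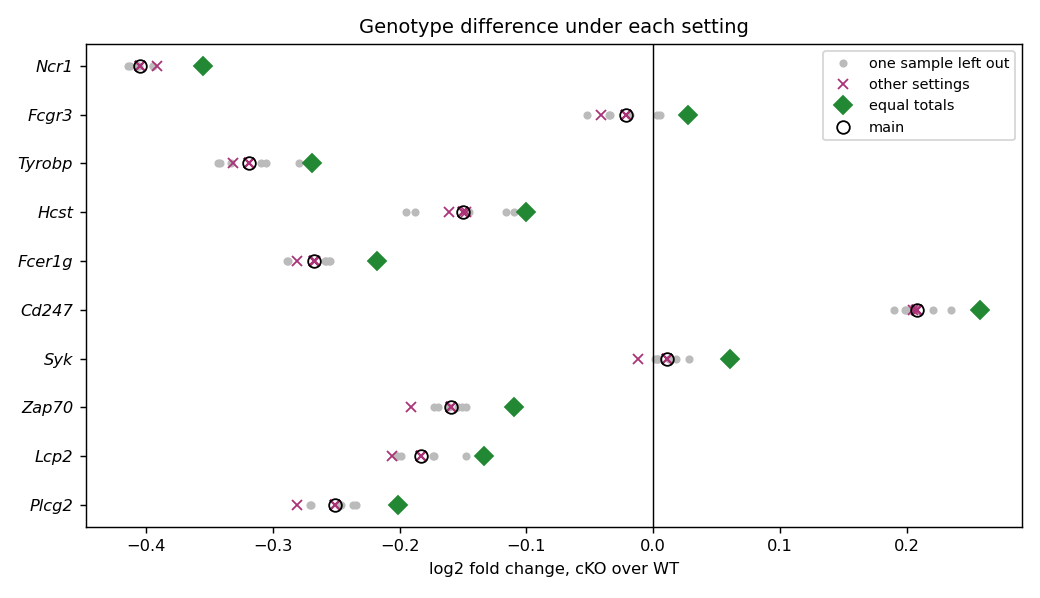
Log2 fold change of cKO over WT (horizontal axis) of the 10 genes under the main setting and each alternative, including fits with 1 sample left out. Scaling to equal totals moves every gene to the right, 7 genes keep their call and direction in all 13 alternatives, and Fcgr3 and Syk lie on both sides of 0.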

How the data were processed

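mRNA-seq of splenic NK cells was analysed in 3 WT and 3 cKO samples. According to the methods and the submitters' processing notes, the authors mapped read pairs to GRCm38 (Hisat2), counted them by gene (featureCounts) and ran DESeq2. Each deposited sample column is a signal in normalized counts, with counts divided by a size factor, and a further column holds the authors' mean over the samples. The authors' log2 fold changes, Wald score and p-values were also deposited and were not used. In each sample 100% of values were whole multiples of 1 step (tolerance 0.01 reads), from which the reads were obtained.

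Normalized counts were taken as log2(value + 1), so fold changes of low genes are understated. A gene needed a value of 1 or more in 3 or more samples, which all 14490 had. Genotypes were compared over all genes with limma 3.58.1 (R 4.3.3), using a variance trend, two-sided p-values and Benjamini-Hochberg adjustment. A count test had been considered, and limma was used because the values are normalized. The fit was tested on simulated data. Positions and exon lengths came from GENCODE M21 (GRCm38), which held 97.3% of the symbols. The lowest chi-square per degree of freedom between samples of 1 genotype was 5.50, so none was counted as a duplicate. Whether samples are separate mice is not given in the sources used here, and p-values measure the spread between these samples only. Single pairs of genes were compared by exact permutation tests.

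The 10 genes and the lists were chosen with earlier results of these data known. Named genes are these 10, Mettl3, Fcgr2b, Fcgr4, Plcg1, Lat, Klrk1 and Klrb1c, the nearest 2 listed genes on each side of Ncr1, the 3 genes most like Ncr1 among those with at least 1 CPM, and the 3 largest rises and falls among called genes of that level in each list. Others were named after their values were seen, namely the genes that overlap Cd247 and Lcp2, and the B-cell and T-cell markers named singly. As alternatives, the pseudocount was set to 0.1, the filter was dropped or raised to 1 CPM in 3 samples, samples were scaled to equal totals, limma-voom was used, the replicate number was blocked, GC content and gene length were corrected for (splines with 5 degrees of freedom), and each sample was left out in turn.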

Additional observations from a re-analysis of the deposited data

How the results depend on the processing

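Of the 8 genes called, 7 kept their call and direction in all 13 alternatives, and Hcst did not in the 3 given above. Fcgr3, not called in any, had a log2 fold change of 0.028 with equal totals and −0.052 to 0.0054 with a sample left out (0.0033 without WT-1, 0.0054 without cKO-1), and Syk had −0.012 once GC content and gene length were corrected for. Equal totals raised the all-gene median to 0.051 on the log2 scale and the share of calls that were higher from 48.5% to 63.4%, and left 6 of the 10 genes lower and 1 higher. With a sample left out, Mettl3 ran from −2.06 to −1.84, the calls among the 10 genes from 7 to 8 and those over all genes from 4417 to 4922. Same-numbered samples did not deviate together (correlations −0.0239, 0.116 and 0.0447, not each the highest), and the replicate block gave 8 calls among the 10 genes and 5543 over all genes, against 5307 without it. For the pairs of genes, the replicate block could not reach a p under 0.25. The edgeR and DESeq2 alternatives were not run, because the step taken as 1 read was not itself observed in 4 of the 6 samples, whose smallest value was 2 or 3 steps. Limma-voom was run on the reads derived from these steps, with the deposited size factors in place of TMM factors. Reads are ample for these genes, and 3 samples per genotype set the precision.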
